A study of Mus musculus with 6 samples.

Results

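The 10 genes described here carry heme breakdown and iron recycling: Hmox1, Blvra, Blvrb, Fth1, Ftl1, Slc40a1, Tfrc, Slc11a1, Slc11a2 and Ncoa4. They were taken by symbol, and all 10 were present among the 11896 named genes of the data and among the 10905 genes tested. RNA was sequenced from primary stromal cells of mouse bone marrow in 6 libraries, 3 from cells with the Pth1rΔNLS allele and 3 from wild-type (WT) cells. Pth1rΔNLS is an allele of the parathyroid hormone receptor without its nuclear localisation signal, and the series design text describes the animals that carry it as heterozygous. RNA was extracted with Trizol from flash-frozen cells of both genotypes. Age, sex, strain, how the cells were isolated or cultured, and whether each library came from its own animal were not stated in the labels, so p-values measure the spread between these libraries, which may be partly technical.

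Senescent red blood cells are taken up by macrophages, which break down their heme and return the iron to the blood. Heme oxygenase opens the heme ring and frees iron and biliverdin, biliverdin reductases turn biliverdin into bilirubin, ferritin stores the iron and ferroportin exports it. In marrow this recycled iron feeds the making of new red cells. Cellular iron also acts back on some of these genes through iron-responsive elements, short RNA hairpins bound by iron regulatory proteins. A hairpin in the 5′ untranslated region lets the proteins block translation, and hairpins in the 3′ untranslated region let them protect the mRNA.

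Hairpins of this kind are what several of the 10 genes have in common, and they are shown because the transcript forms below differ in carrying them. Listed transcripts were searched on the sense strand, outside coding sequence, for the 6-base loop CAGTGN (last base A, C or T) with a C placed 6 bases before it and 5 base pairs in the stem, G with T allowed and at most 1 unpaired base on the 3′ side. Of the 10 genes 5 held at least 1 such site, against 1.75% of the 11889 gene symbols searched. In GENCODE M21 transcripts on mm10, capitals mark the loop:
Fth1, 5′ untranslated region, chr19:9982733-9982759, plus strand: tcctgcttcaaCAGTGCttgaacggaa
Ftl1, 5′ untranslated region, chr7:45459780-45459806, minus strand: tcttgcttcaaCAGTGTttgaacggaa
Slc40a1, 5′ untranslated region, chr1:45925466-45925492, minus strand: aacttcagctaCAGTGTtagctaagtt
Tfrc, 3′ untranslated region, first of 4 sites, chr16:32631220-32631246, plus strand: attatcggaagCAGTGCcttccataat
Slc11a2, 3′ untranslated region, chr15:100395154-100395180, minus strand: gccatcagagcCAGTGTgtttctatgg
The 3 sites in 5′ untranslated regions belong to the storage and export genes, and the sites in 3′ untranslated regions to the uptake genes. A match describes the letters and does not show binding. Hmox1, Blvra, Blvrb, Slc11a1 and Ncoa4 had no match in their listed transcripts.

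Values are FPKM, fragments scaled to transcript length and to the mapped total, summed over the listed transcripts of a gene. The table gives no read counts, so sequencing depth is unknown and counting intervals cannot be stated. Because the values are relative, a gain by abundant genes lowers the rest. The libraries had 11810 to 11834 genes above 0. The mitochondrial genome supplied 18.2, 12.8 and 10.6% of FPKM in Pth1rΔNLS 1, 2 and 3 and 6.47, 12.8 and 9.33% in WT 1, 2 and 3. Pth1r itself stood at 1.91, 1.72 and 2.99 FPKM in Pth1rΔNLS and at 7.98, 4.72 and 6.24 FPKM in WT, but this summed level says nothing of the stretch missing from the allele and so does not check the labels. Genotypes were compared with limma on log2(FPKM + 1), Pth1rΔNLS minus WT, with p-values adjusted by Benjamini-Hochberg over all 10905 genes and a threshold of 0.05.

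The libraries labelled as stromal cells held abundant macrophage RNA, and it stood higher in Pth1rΔNLS. The summed level of 18 macrophage markers, of 20 listed, was 8086 to 8469 FPKM in Pth1rΔNLS and 5958 to 6232 FPKM in WT. None of these 18 was at 0, and Cd163 and Vsig4 were not among the named genes of the data. Of the 18, 12 rose and 0 fell, with a median log2 fold change of 0.45 against -0.01 over all genes tested. The most abundant were Lyz2 (lysozyme; 2811 ± 32.2 FPKM in Pth1rΔNLS and 2231 ± 75.5 FPKM in WT), C1qb and C1qc (complement; 1010.1 ± 61.3 and 752 ± 64.6 FPKM in Pth1rΔNLS, 724 ± 34.8 and 556 ± 43.5 FPKM in WT) and Ctss (cathepsin S; 664 ± 23.7 FPKM in Pth1rΔNLS and 531 ± 9.12 FPKM in WT), with SD over 3 libraries. All 4 rose (limma adjusted p = 0.00947 to 0.0285), Lyz2 lost its call when any 1 library was left out, C1qc when any but Pth1rΔNLS 1 was, and Ctss without Pth1rΔNLS 1 or 2 or WT 1 or 3. Under quantile normalisation the log2 fold change of Lyz2 was 0.078, against 0.33 on FPKM, and did not pass (95% interval -0.456 to 0.611, adjusted p = 0.851). The count of markers that rose was 7 without Pth1rΔNLS 2, 8 without Pth1rΔNLS 3, 8 without WT 1, 6 without WT 3 and 5 when Pth1rΔNLS 1 and WT 1, the libraries of highest and lowest mitochondrial share, were both left out. Marrow stromal and osteoblast markers, 14 of 16, summed to 670 to 764 FPKM in Pth1rΔNLS and 1777 to 2276 FPKM in WT. Of the 13 that were tested, 0 rose and 12 fell (median -1.22). None of the 15 erythroid markers was among the named genes of the data, so the share of red cell RNA in the libraries cannot be given.

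Of the 10 heme and iron genes, 6 rose in Pth1rΔNLS and 0 fell, while 6.94% of all genes tested were called higher and 10.4% lower. The 6 were the heme oxygenase gene Hmox1, both biliverdin reductase genes, both ferritin chains and the iron exporter Slc40a1. In 8 of the 10 the libraries of the genotypes did not overlap, all 8 with Pth1rΔNLS higher, against 16.6% of genes tested in that direction (36.6% in either). For Tfrc, among the 8, this held for FPKM summed over forms of unlike length and not for its longest form. The median log2 fold change of the 10 genes was 0.58, against -0.01 over all genes. The exact two-sided permutation test on a single gene cannot go below p = 0.1 with 20 assignments. Libraries that do not overlap always reach that value, so for those 8 genes the test adds nothing to the non-overlap. The count of 6 fell to 3 without WT 1 and to 3 without WT 2, and was 4 or 5 without any other single library and 4 without both Pth1rΔNLS 1 and WT 1. In bulk RNA, more cells of a type cannot be told apart from more RNA per cell.

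**Figure D1:**
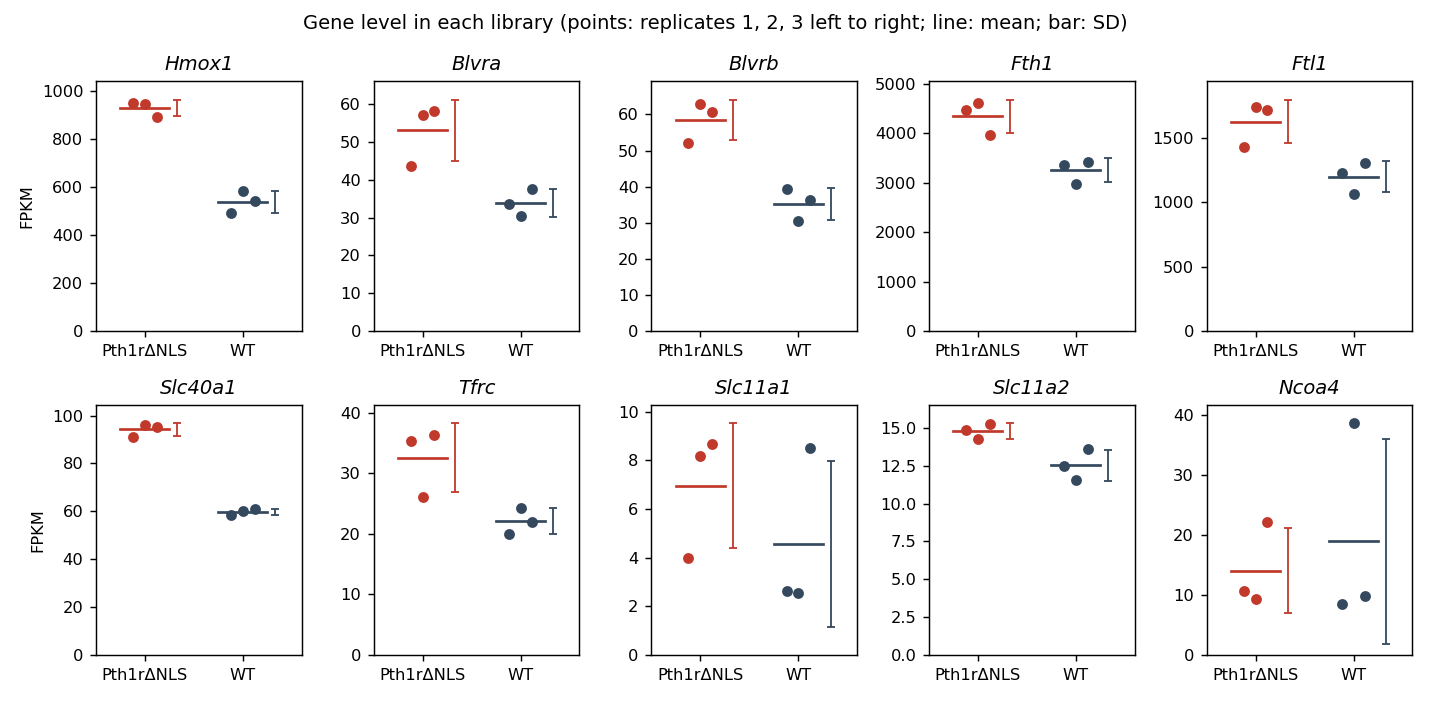
FPKM of each of the 10 genes (vertical axes, each starting at 0) in the Pth1rΔNLS libraries and the WT libraries; points are replicates 1 to 3 from left to right, lines are means and bars are SD. Hmox1 and Slc40a1 separate the genotypes most widely relative to their spread, and in Slc11a1 and Ncoa4 the genotypes overlap, with WT 3 (8.50 FPKM) and WT 2 (38.7 FPKM) far above the other WT libraries.

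Levels spanned nearly 3 orders of magnitude and kept much the same order in both genotypes. In Pth1rΔNLS the order of means ran from Fth1, Ftl1 and Hmox1 through Slc40a1, Blvrb, Blvra and Tfrc to Slc11a2, Ncoa4 and Slc11a1. In WT, Ncoa4 stood above Slc11a2 and the rest kept that order. Blvra and Blvrb overlapped in each genotype, as did Slc11a2 and Ncoa4, and in WT the wide range of Ncoa4 also took in Tfrc and reached Blvra, Blvrb and Slc11a1.

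Hmox1, which encodes the inducible heme oxygenase (ENSMUSG00000005413.8, chromosome 8, 75093621 to 75100589, mm10), had the largest log2 fold change of the 10 genes. It stood at 953, 949 and 892 FPKM in Pth1rΔNLS and at 494, 583 and 541 FPKM in WT. Every Pth1rΔNLS library lay above every WT library by a wide margin. The means were 931 ± 34.4 FPKM in Pth1rΔNLS and 539 ± 44.5 FPKM in WT (SD, n = 3 each), a 1.73-fold ratio. On the log2 scale Hmox1 was higher by 0.79 (SE 0.08, 95% interval 0.59 to 0.99, limma adjusted p = 0.00190), and it passed in all 17 alternatives (adjusted p 0.000683 to 0.0332). With 1 listed transcript of 2 annotated, Hmox1 ranked between 27 and 28 among all genes in Pth1rΔNLS and between 48 and 62 in WT. Hmox2, the constitutive heme oxygenase, stood at 41.6, 64.6 and 63.2 FPKM in Pth1rΔNLS and 36.5, 32.8 and 80.3 FPKM in WT, and its genotypes overlapped (log2 fold change 0.27, limma adjusted p = 0.667).

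The biliverdin reductases rose by similar amounts. Blvrb, which is also a flavin reductase (chromosome 7, 27447978 to 27466144), stood at 52.2, 62.8 and 60.6 FPKM in Pth1rΔNLS and 39.2, 30.5 and 36.2 FPKM in WT (log2 fold change 0.72, SE 0.12, limma adjusted p = 0.00940). Blvra, which makes the main form of bilirubin of adult tissue (chromosome 2, 127070665 to 127097084), stood at 43.7, 57.2 and 58.3 FPKM in Pth1rΔNLS and 33.7, 30.4 and 37.6 FPKM in WT (0.62, SE 0.14, adjusted p = 0.0247). In both genes Pth1rΔNLS 1 was the lowest of its group yet stood above all WT libraries. The ratio of Blvrb to Blvra was 1.19, 1.10 and 1.04 in Pth1rΔNLS and 1.17, 1.00 and 0.962 in WT (exact two-sided permutation p = 0.4). Blvrb kept its call when any 1 library was left out (adjusted p 0.0166 to 0.0414), whereas Blvra lost it without Pth1rΔNLS 2 (0.0853), Pth1rΔNLS 3 (0.0825), WT 1 (0.0719) or WT 2 (0.0626). One form of each gene carried most of its level, form 201 at 79.6 to 92.3% of Blvra and form 201 of Blvrb at 75.6 to 85.2% over the 6 libraries.

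Both ferritin chains rose, with adjusted p close to the threshold. Fth1, the ferroxidase heavy chain (chromosome 19, 9980598 to 9985098), stood at 4469.5, 4607 and 3973 FPKM in Pth1rΔNLS and 3366, 2973 and 3415 FPKM in WT. Fth1 was higher by 0.42 on the log2 scale (SE 0.11, limma adjusted p = 0.0397) and ranked among the 10 most abundant genes of every library. Ftl1, the light chain (chromosome 7, 45457944 to 45459884), stood at 1432, 1738 and 1716 FPKM in Pth1rΔNLS and 1229, 1066 and 1307 FPKM in WT (0.44, SE 0.12, adjusted p = 0.0497). The genotypes did not overlap in either gene, but the Ftl1 gap between Pth1rΔNLS 1 and WT 3 was small. Fth1 kept its call only without Pth1rΔNLS 3 and lost it without any other single library (adjusted p 0.0850 to 0.133), and Ftl1 kept it only without Pth1rΔNLS 1 (0.0813 to 0.152 without any other). Without both Pth1rΔNLS 1 and WT 1 neither passed (0.179 for Fth1 and 0.0998 for Ftl1), and Ftl1 also missed with no filter on low genes (0.0513). Under quantile normalisation, which gives equal ranks equal values, neither passed: Fth1 stood at -0.017 (95% interval -0.613 to 0.578, adjusted p = 0.973), the opposite sign, and Ftl1 at 0.378 (-0.048 to 0.804, adjusted p = 0.203).

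The ferritin chains together made up 1.72, 1.89 and 1.80% of all FPKM in Pth1rΔNLS and 1.45, 1.21 and 1.47% in WT. The ratio of heavy to light chain was 3.12, 2.65 and 2.32 in Pth1rΔNLS and 2.74, 2.79 and 2.61 in WT, with means of 2.70 ± 0.405 and 2.71 ± 0.0911 (SD, n = 3 each, exact two-sided permutation p = 1). Fth1 had 1 listed transcript of 9 annotated, the form with the hairpin shown above. In Ftl1, form 201 with the hairpin carried 97.4 to 99.8% of the level. Ferritin genes have near-identical copies that can share reads. One copy was listed, Ftl1-ps1 (chromosome 13, 74399694 to 74407346), at 131, 153 and 119 FPKM in Pth1rΔNLS and 95.6, 58 and 119 FPKM in WT, so the light chain values carry that uncertainty.

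Slc40a1, which encodes the iron exporter ferroportin (ENSMUSG00000025993.10, chromosome 1, 45908068 to 45926523), had the smallest adjusted p of the 10 genes. It stood at 91.2, 96.1 and 95.3 FPKM in Pth1rΔNLS and at 58.4, 60.0 and 60.9 FPKM in WT. Within each genotype the libraries lay close together, with SD of 2.60 FPKM in Pth1rΔNLS and 1.28 FPKM in WT around means of 94.2 and 59.8 FPKM (n = 3 each). On the log2 scale it was higher by 0.65 (SE 0.06, 95% interval 0.51 to 0.79, limma adjusted p = 0.00109), and it passed in all 17 alternatives (adjusted p 0.000526 to 0.0451). Form 201, whose 5′ untranslated region holds the hairpin, carried at least 98.8% of the level in every library.

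The uptake genes did not pass the test. Tfrc, the transferrin receptor that brings in iron from the blood (chromosome 16, 32608920 to 32632794), stood at 35.3, 26.1 and 36.4 FPKM in Pth1rΔNLS and 20.005, 24.3 and 21.9 FPKM in WT. On summed FPKM all Pth1rΔNLS libraries lay above WT, with Pth1rΔNLS 2 close to WT 2. The sum joins forms of 4890, 1860 and 166 bases. Form 201, the longest, overlapped between genotypes, at 14.8 FPKM in Pth1rΔNLS 2 and 17.0 FPKM in WT 2. The separation of the summed level therefore depends on how reads were divided between forms. On the log2 scale the difference was 0.53 (SE 0.14, limma adjusted p = 0.0509), and it passed without Pth1rΔNLS 2 (0.68, adjusted p = 0.0206) or with only genes of at least 5 FPKM tested (0.0475). Slc11a2, the divalent metal transporter that moves iron out of endosomes (chromosome 15, 100387898 to 100425072), stood at 14.8, 14.3 and 15.3 FPKM in Pth1rΔNLS and 12.5, 11.5 and 13.6 FPKM in WT (0.23, SE 0.09, adjusted p = 0.133). Its libraries did not overlap either, although the distance from Pth1rΔNLS 2 to WT 3 was under 1 FPKM. The ratio of Tfrc to Slc40a1, uptake against export, was 0.387, 0.272 and 0.382 in Pth1rΔNLS and 0.343, 0.405 and 0.361 in WT, with overlapping genotypes (exact two-sided permutation p = 0.8).

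Transcript forms with and without the hairpins were compared at the transcript level, where the table divides reads by estimate. Of 26 listed forms of the 10 genes 22 were tested, and 2 rose and 0 fell, where 5.21% of 17281 transcripts were called, 1.82% higher and 3.39% lower. These 2 were Slc40a1-201 (log2 fold change 0.64, limma adjusted p = 0.00406) and Hmox1-201 (0.79, adjusted p = 0.00671), which hold nearly all of their genes' levels. The Slc11a2 form with the hairpin, 205, stood at 4.22, 4.83 and 4.92 FPKM in Pth1rΔNLS and 5.11, 3.80 and 4.91 FPKM in WT (0.02, 95% interval -0.34 to 0.38, adjusted p = 0.964). The form without it, 201, stood at 10.1, 8.77 and 9.84 FPKM in Pth1rΔNLS and 6.89, 7.33 and 8.24 FPKM in WT (0.32, 95% interval 0.05 to 0.59, adjusted p = 0.196). The genotypes overlapped for the form with the hairpin and not for the form without it, but the ratio of 205 to 201 overlapped (0.419, 0.551 and 0.4998 in Pth1rΔNLS, 0.742, 0.518 and 0.595 in WT, exact two-sided permutation p = 0.2).

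In Tfrc the hairpin-bearing form 201 stood at 23.2, 14.8 and 29.3 FPKM in Pth1rΔNLS and 8.91, 17.0 and 13.2 FPKM in WT (log2 fold change 0.73, limma adjusted p = 0.296). Form 202, without the hairpins, stood at 11.2, 9.54 and 6.18 FPKM in Pth1rΔNLS and 10.2, 6.43 and 7.28 FPKM in WT (0.14, adjusted p = 0.818). Both forms overlapped between genotypes, and so did their ratio (exact two-sided permutation p = 0.5). Form 202 is listed at 1860 bases, against 4890 for form 201, and whether it is a complete mRNA was not tested.

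**Figure D2:**
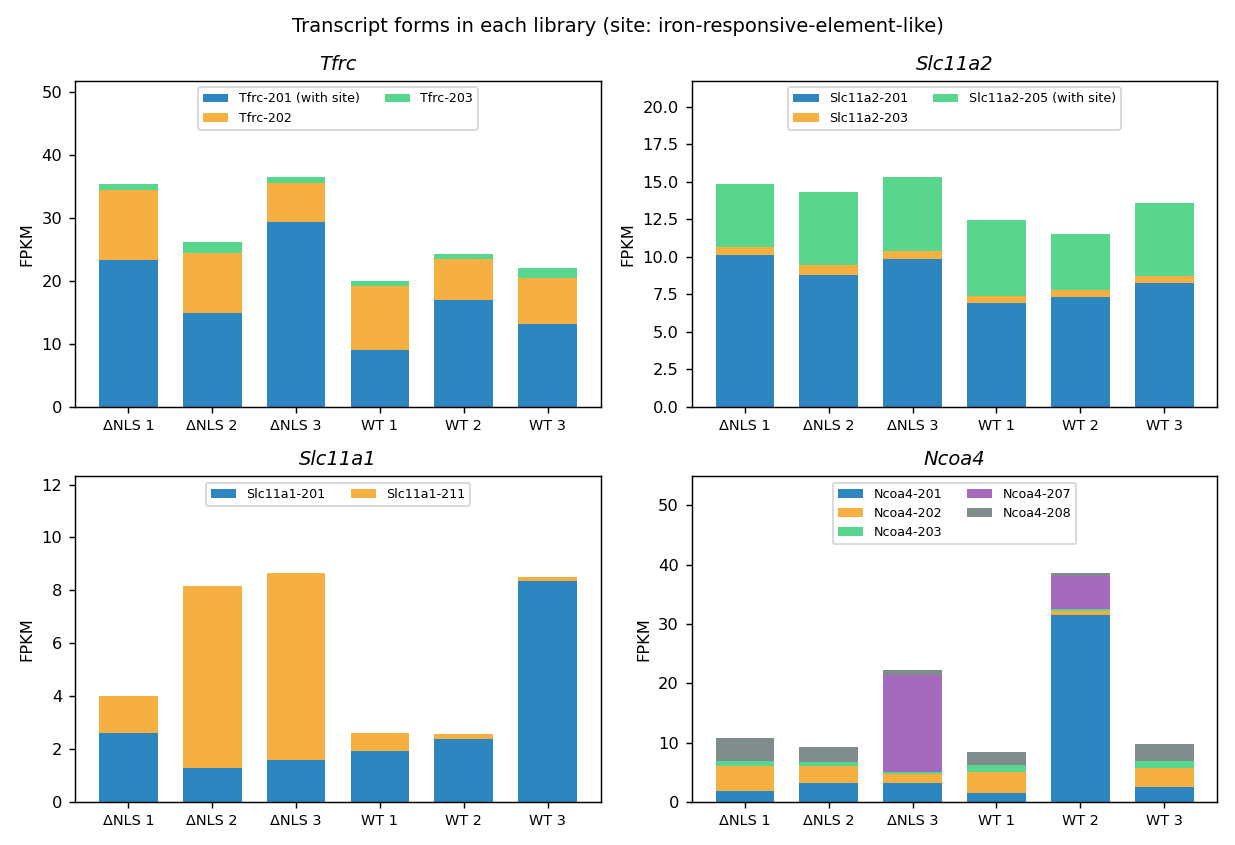
FPKM of the listed transcript forms of Tfrc, Slc11a2, Slc11a1 and Ncoa4 (stacked bars from 0, vertical axis in FPKM) in each Pth1rΔNLS and WT library; forms with a hairpin match are marked. The Slc11a1 level of WT 3 lies in form 201 and that of Pth1rΔNLS 2 and 3 in form 211, and Ncoa4 is raised in WT 2 by form 201 and in Pth1rΔNLS 3 by form 207.

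Slc11a1, the phagosomal metal transporter of macrophages (chromosome 1, 74375195 to 74386062), was the lowest of the 10 genes and varied within groups. It stood at 3.99, 8.18 and 8.67 FPKM in Pth1rΔNLS and 2.62, 2.56 and 8.50 FPKM in WT. Only WT 3 reached the level of Pth1rΔNLS 2 and 3, and the genotypes overlapped (log2 fold change 0.62, SE 0.45, limma adjusted p = 0.412). The forms behind these levels differed. Form 211 stood at 1.37, 6.90 and 7.10 FPKM in Pth1rΔNLS and 0.706, 0.198 and 0.137 FPKM in WT. Form 201 stood at 2.62, 1.28 and 1.57 FPKM in Pth1rΔNLS and 1.91, 2.36 and 8.36 FPKM in WT. Form 211 therefore made up 34.4, 84.3 and 81.9% of the gene in Pth1rΔNLS and 26.96, 7.75 and 1.61% in WT. Its genotypes did not overlap, but it did not pass the test over all transcripts (2.01, SE 0.54, adjusted p = 0.113), and 2 of 11 annotated forms were listed.

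Ncoa4, the receptor that delivers ferritin to autophagosomes (chromosome 14, 32159865 to 32179855), stood at 10.7, 9.26 and 22.3 FPKM in Pth1rΔNLS and 8.48, 38.7 and 9.76 FPKM in WT. Pth1rΔNLS 3 and WT 2 stood apart from the other 4 libraries, and the genotypes overlapped fully (log2 fold change -0.18, SE 0.60, limma adjusted p = 0.872). The high value of WT 2 lay in form 201, at 31.6 FPKM or 81.6% of the gene, against 1.55 to 3.23 FPKM in the other 5 libraries. The high value of Pth1rΔNLS 3 lay in form 207, at 16.3 FPKM or 73.2%, which stood at 5.65 FPKM in WT 2 and was listed at 0 in the other 4 libraries. Form 207 is 791 bases long and form 201 is 3343, and the same FPKM on a shorter form stands for fewer fragments. The high summed level of Pth1rΔNLS 3 therefore does not show that it held more Ncoa4 fragments. Without WT 2 the log2 fold change of the gene was 0.48 (limma adjusted p = 0.430) and without Pth1rΔNLS 2 it was 0.05, so single libraries set the sign.

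Relative to the macrophage markers the picture was narrower. When each library was centred on its mean log2(FPKM + 1) over the 18 macrophage markers, the median of all genes moved to -0.47, and 2 of the 10 genes passed as higher. For Hmox1 the log2 fold change exceeded that of the marker mean by 0.33 (95% interval 0.13 to 0.53, limma adjusted p = 0.0147). For Slc40a1 it did so by 0.19 (0.03 to 0.35, limma adjusted p = 0.0451). Single markers spread around that mean, and 2 of the 18 also passed as higher on that scale. On FPKM the log2 fold changes of the markers ran from 0.12 (Itgam) to 0.79 (Mertk), beside 0.79 for Hmox1 and 0.65 for Slc40a1. The centred log2 fold changes of the biliverdin reductases were 0.26 for Blvrb and 0.17 for Blvra, with intervals of -0.07 to 0.58 and -0.20 to 0.53. Those of the ferritin chains were -0.04 for Fth1 (-0.34 to 0.26) and -0.02 for Ftl1 (-0.35 to 0.31). They were 0.07 for Tfrc (-0.24 to 0.39) and -0.23 for Slc11a2 (-0.47 to 0.01). On that scale 115 of the 10905 genes tested were called higher and 6280 lower, against 757 and 1129 on FPKM. Of the called genes 1.8% were higher, against 40.1% of those called on FPKM.

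**Figure D3:**
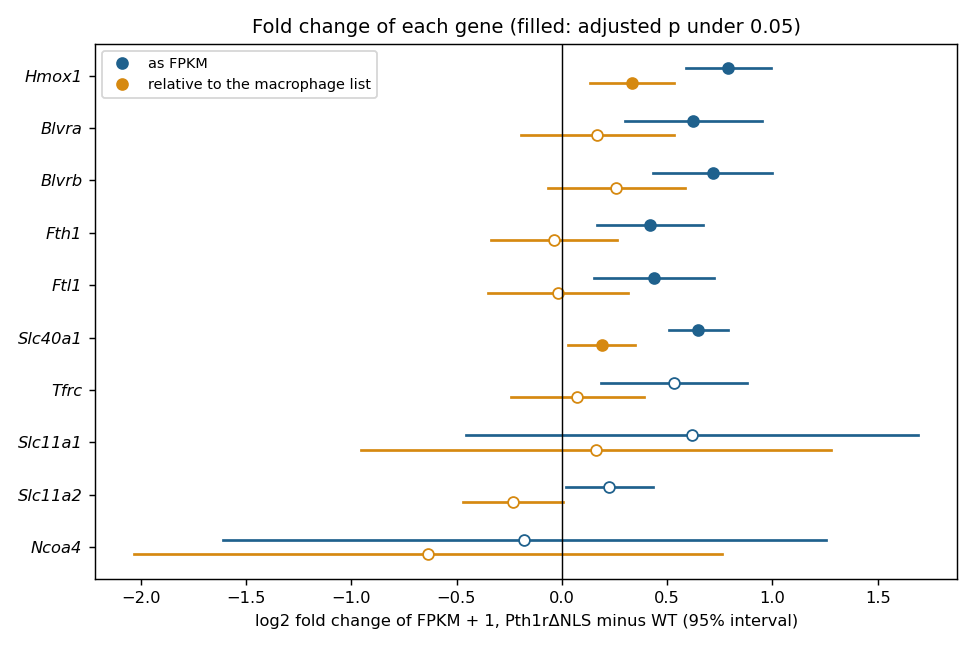
Log2 fold change of FPKM + 1, Pth1rΔNLS minus WT, for the 10 genes (horizontal axis, points with 95% intervals), on FPKM and after centring each library on 18 macrophage markers; filled points passed an adjusted p of 0.05. Hmox1 (0.79 and 0.33) and Slc40a1 (0.65 and 0.19) passed on both scales, and Fth1 and Ftl1 moved from 0.42 and 0.44 to -0.04 and -0.02.

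The wider heme and iron network was read from 7 lists of 84 genes, of which 67 were tested. Among them 7 rose, 7 fell and 53 missed the threshold, where 6.94% of all genes were called higher and 10.4% lower, and their median log2 fold change was 0.10. The count that rose was 4 without Pth1rΔNLS 2, 11 without WT 2 and 2 without both Pth1rΔNLS 1 and WT 1, and the count that fell was 4 without Pth1rΔNLS 2. These counts stood beside the higher macrophage markers (12 of 18) and the lower stromal markers (12 of 13), and the part of either in them was not tested beyond the centring above.

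Genes that handle heme moved in both directions. Of 9 tested genes of heme and haemoglobin uptake and heme transport 2 rose and 2 fell (median 0.03). Por, the reductase that gives heme oxygenase its electrons, stood at 79.9, 98.3 and 91.1 FPKM in Pth1rΔNLS and 61.1, 42.8 and 57.0 FPKM in WT (log2 fold change 0.74, limma adjusted p = 0.0187). Slc48a1, which carries heme out of the phagolysosome, stood at 84.1, 86.0 and 80.8 FPKM in Pth1rΔNLS and 53.0, 62.6 and 65.2 FPKM in WT (0.47, adjusted p = 0.0168). The genotypes did not overlap in either gene. Por lost its call without Pth1rΔNLS 2 (0.0679) or 3 (0.0650), and Slc48a1 without Pth1rΔNLS 1 (0.0570) or 2 (0.0655).

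Hp, encoding the haemoglobin-binding protein haptoglobin, fell to 83.9 ± 5.06 FPKM in Pth1rΔNLS, against 150.1 ± 7.08 FPKM in WT (log2 fold change -0.83, limma adjusted p = 0.000983). Pgrmc1, a heme-binding membrane protein, fell to 59.1 ± 2.40 FPKM in Pth1rΔNLS, against 90.2 ± 4.87 FPKM in WT (-0.60, adjusted p = 0.00257). Of 8 tested heme synthesis genes none passed with limma, and 2 had an unadjusted p under 0.05 (median -0.02). The most abundant were Fech, which inserts iron into the ring (15.9 ± 1.03 FPKM in Pth1rΔNLS and 18.1 ± 0.705 FPKM in WT), and Alas1, which starts the pathway (16.6 ± 1.65 FPKM in Pth1rΔNLS and 9.02 ± 3.64 FPKM in WT). Alas1 was at 4.87 FPKM in WT 2 and passed without that library (log2 fold change 0.54, adjusted p = 0.0326).

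Of 8 tested iron uptake and endosomal genes 0 rose and 3 fell (median -0.01). Tfr2, the second transferrin receptor, fell to 1.71, 2.48 and 2.26 FPKM in Pth1rΔNLS, against 8.21, 6.07 and 6.48 FPKM in WT (log2 fold change -1.33, limma adjusted p = 0.00255). Slc39a14, an importer of iron not bound to transferrin, stood at 16.6, 17.6 and 19.2 FPKM in Pth1rΔNLS and 26.4, 23.3 and 24.1 FPKM in WT (-0.45, adjusted p = 0.0176). Steap2, a metalloreductase, stood at 3.26, 2.86 and 2.67 FPKM in Pth1rΔNLS and 4.32, 5.46 and 4.83 FPKM in WT (-0.58, adjusted p = 0.0213). Tfr2 kept its call when any 1 library was left out, whereas Slc39a14 lost it without Pth1rΔNLS 1 or 2 or WT 1 or 3 (0.0563 to 0.0656) and Steap2 without Pth1rΔNLS 2 or 3 or WT 3 (0.0688 to 0.0738).

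Genes of iron sensing, chaperoning and ferritin turnover showed no call with limma among 10 tested (median 0.05), with 1 at an unadjusted p under 0.05. The iron chaperones Pcbp2 and Pcbp1 stood at 76.3 ± 9.43 and 71.4 ± 2.22 FPKM in Pth1rΔNLS and 74 ± 17.1 and 69.9 ± 6.44 FPKM in WT. Neither of 2 tested genes of iron export and hepcidin control passed, with 1 at an unadjusted p under 0.05. They were Hfe, which binds transferrin receptors (22.9 ± 2.22 FPKM in Pth1rΔNLS and 19.4 ± 0.341 FPKM in WT), and the ferroxidase gene Cp (6.90 ± 0.420 FPKM in Pth1rΔNLS and 8.80 ± 1.58 FPKM in WT). Of 13 tested genes of mitochondrial iron and iron-sulfur clusters 0 rose and 1 fell, the ferredoxin Fdx1 (8.14 ± 0.526 FPKM in Pth1rΔNLS and 11.8 ± 1.04 FPKM in WT, log2 fold change -0.48, adjusted p = 0.0188), a call lost without Pth1rΔNLS 1 or 2 or WT 3 (0.0639 to 0.0711).

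The transcription factors BACH1 and NRF2 are known to repress and activate Hmox1 and the ferritin genes, and 17 of their genes and targets were tested. Of these 5 rose and 1 fell, with a median log2 fold change of 0.37. Srxn1, encoding the antioxidant sulfiredoxin, stood at 66.2, 62.3 and 59.0 FPKM in Pth1rΔNLS and 41.9, 30.3 and 35.4 FPKM in WT (0.79, limma adjusted p = 0.00785). Txnrd1, a thioredoxin reductase, rose to 105.7 ± 2.57 FPKM in Pth1rΔNLS, against 77.8 ± 2.45 FPKM in WT (0.44, adjusted p = 0.00470). G6pdx, which supplies NADPH, rose to 59.1 ± 1.07 FPKM in Pth1rΔNLS, against 41.8 ± 1.61 FPKM in WT (0.49, adjusted p = 0.00360). Me1, another source of NADPH, fell to 20 ± 0.639 FPKM in Pth1rΔNLS, against 33.3 ± 1.69 FPKM in WT (-0.71, adjusted p = 0.00155). After centring on the macrophage markers the log2 fold change was 0.34 for Srxn1 (limma adjusted p = 0.0711), 0.03 for G6pdx and -0.02 for Txnrd1. None of the 67 network genes passed as higher there by limma. Without both Pth1rΔNLS 1 and WT 1, G6pdx (adjusted p = 0.0572) and Txnrd1 (0.0667) lost their calls, as did Slc48a1 (0.0866), Slc39a14 (0.133), Steap2 (0.0700) and Fdx1 (0.119) of the other lists.

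**Figure D4:**
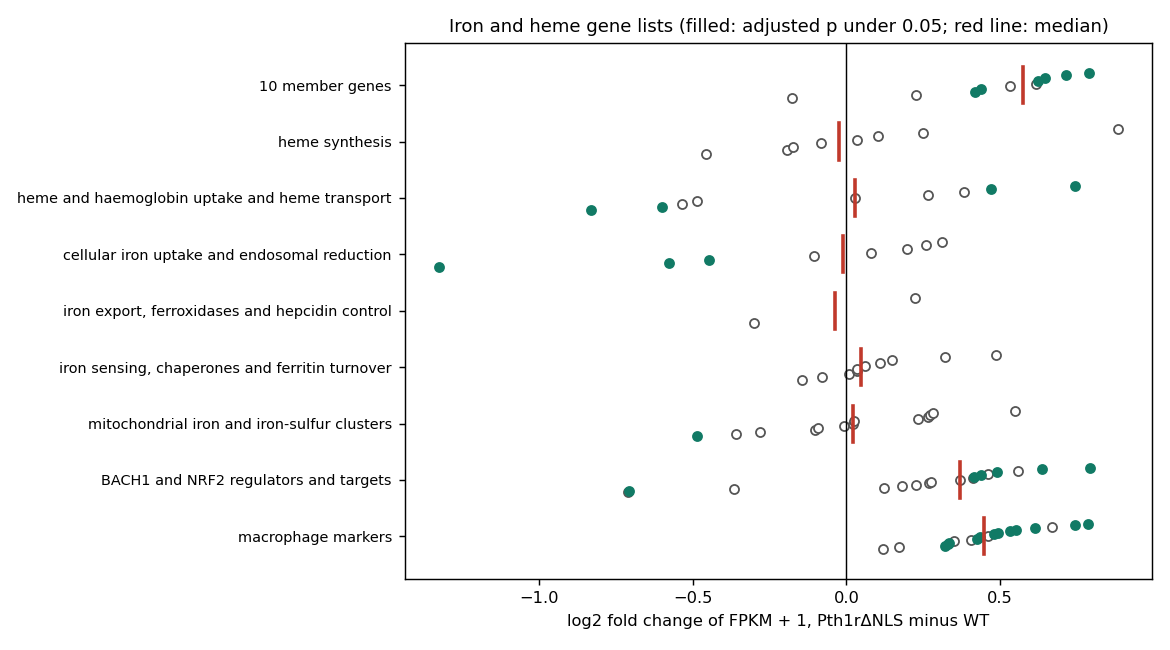
Log2 fold change of FPKM + 1, Pth1rΔNLS minus WT (horizontal axis), for each tested gene of the 10 described genes, the 7 heme and iron lists and the macrophage markers; filled points passed an adjusted p of 0.05 and red lines are medians. The 10 genes (median 0.58), the BACH1 and NRF2 list (0.37) and the macrophage markers (0.45) lie to the right of 0, and the other lists have medians between -0.04 and 0.05.

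The genes whose profile over the 6 libraries lay closest to that of a given gene were found by Euclidean distance of log2(FPKM + 1) centred on each gene's mean. This is a description over 6 libraries that fall into 2 genotypes, so any gene with a like genotype difference lies near. Closest to Hmox1 were Atp8b4, of the lipid flippase family (distance 0.105), Cxcr4, the receptor for the chemokine Cxcl12 (0.112), and Rcbtb2 (0.119). Closest to Slc40a1 were Dock2, a leukocyte migration regulator (0.068), and Hgsnat, a lysosomal enzyme (0.068). Closest to Tfrc were Gfm2, a mitochondrial translation factor (0.092), Spic, the transcription factor of iron-recycling macrophages of the spleen (0.186), and Aspm, a spindle protein (0.191). Spic, also among the macrophage markers and the BACH1 and NRF2 list, stood at 1.68, 1.26 and 2.14 FPKM in Pth1rΔNLS and 0.824, 1.06 and 0.944 FPKM in WT (log2 fold change 0.46, limma adjusted p = 0.0923; 0.55 and 0.0469 under quantile normalisation).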

How the data were processed

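The tools HISAT2 and StringTie and the build mm10 are named per the submitters' processing notes, without versions, settings or annotation. The deposited table holds a value per transcript and library for 23351 transcripts, with no unit in its header. The deposited values were taken as FPKM: the sum of value times transcript length was 75.0 to 78.1% of the total expected for FPKM (coefficient of variation 1.49%), while plain sums varied by 3.46%. Whether strand was used is not stated.

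Transcripts were matched by identifier without version to GENCODE M21 (23300 named; the 51 others held at most 0.117% of FPKM), and FPKM were summed per gene. limma 3.58.1 in R 4.3.3 (lmFit, eBayes with trend) compared Pth1rΔNLS with WT on log2(FPKM + 1) for genes, and separately transcripts, with a mean of at least 1 FPKM. Fold changes on this scale understate the change of low genes. The scripts were checked on simulated data. Errors are SD over 3 libraries, SE the moderated limma error. Annotated genes overlap Ftl1 (Gm22133, Gm10252) and Slc11a2 (Gm5475), and none of them was among the named genes of the data. No library pair shared more than 1 identical value above 0.

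Named besides the 10 genes are up to 4 genes of smallest p past the threshold in each list (or the 2 of highest mean), the 4 most abundant macrophage markers, 3 nearest profiles for Hmox1, Slc40a1 and Tfrc (1 of them is not reported here), and Pth1r; Hmox2 and Ftl1-ps1 fall outside this rule and were chosen after their values were seen. Other marker lists were tested only in part: 1 of 10 neutrophil and 1 of 7 B cell genes. For adipocyte and endothelial genes it was 3 of 7 each, and for osteoclast genes 4 of 10. Higher were the neutrophil gene (Mmp8) and 2 adipocyte genes, and lower were the B cell gene (Ebf1) and 2 endothelial genes. Of the osteoclast genes 1 was higher and 1 lower. A single gene cannot stand for a cell type. No T and NK cell marker was among the named genes of the data. Members and lists were chosen with earlier results of these data known. Alternatives covered pseudocount, filter, scaling, variance model, array weights, replicate block and left-out libraries; those for network genes, macrophage markers and named genes outside the 10 were added after the data were seen. Python 3.11.15, pandas 2.3.3, numpy 2.4.6 and matplotlib 3.10.9 handled tables and plots.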

Additional observations from a re-analysis of the deposited data

How the results depend on the processing

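No alternative made any of the 10 genes pass as lower. The number of the 10 that rose, 6, was 2 after centring on the macrophage markers and 2 with the replicate block, 3 to 5 with 1 library left out, and 4 to 7 under the remaining alternatives. Quantile normalisation, in which equal ranks get equal values, gave Fth1 -0.017 (its rank was 4 to 9 in Pth1rΔNLS and 3 to 10 in WT). Centring on the macrophage markers gave -0.037 for Fth1, -0.018 for Ftl1, -0.23 for Slc11a2, -0.019 for Txnrd1, -0.23 for Hfe, -0.42 for Pcbp1, -0.40 for Pcbp2, -0.12 for Lyz2, -0.021 for C1qc and -0.14 for Ctss, each the opposite sign, by construction relative to those markers. It called 6395 genes (115 higher, 6280 lower) against 1886 (757 and 1129), with 2 macrophage markers higher and 0 higher and 28 lower among the 67 network genes. Ncoa4 turned to 0.12 with array weights, 0.05 without Pth1rΔNLS 2 and 0.48 without WT 2 (-0.553 to 0.48 with any 1 library left out). Pcbp1 turned to -0.044 without WT 1 (up to 0.079 with another left out), and Pcbp2 to -0.03 without Pth1rΔNLS 1 and -0.093 without WT 1 (up to 0.231). Without both Pth1rΔNLS 1 and WT 1 these gave -0.045 for Pcbp1 and -0.18 for Pcbp2. The cause was not tested.

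Replicate numbers did not pair the libraries: same-numbered deviations correlated at -0.19, -0.07 and 0.07. In no same-numbered pair was each library the best match of the other. With the replicate block 792 genes passed (232 higher, 560 lower), 5 macrophage markers rose, 2 network genes rose and 4 fell, and 0 transcripts passed limma (0 higher, 0 lower; 2527 at an unadjusted p under 0.05), against 900 (314 and 586). Leaving out 1 library gave 1051 to 1712 genes (348 to 695 higher, 703 to 1017 lower), 351 to 736 transcripts (98 to 285 higher, 253 to 451 lower), 6 to 12 macrophage markers, and 4 to 11 network genes higher and 4 to 7 lower. Without both Pth1rΔNLS 1 and WT 1, the libraries of extreme mitochondrial share, 620 genes passed (191 higher, 429 lower), 5 macrophage markers rose and 2 network genes rose. Array weights gave 13 network genes higher. Depth is unknown, so the precision of low genes such as Slc11a1 cannot be given from counts.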
